A study of Mus musculus with 15 samples.

Results

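The genes described here carry glucose carbon from the cell surface to the TCA cycle: glucose transporters, the enzymes of glycolysis, the lactate and pyruvate handling genes, and the enzymes of the TCA cycle. The list held 45 genes, and 40 of them had a probe set that carries their symbol alone. Where a gene had several such probe sets, the one with the highest mean over the 15 arrays was used. Of the other 5 genes, Gapdh lay on 11 probe sets that also carry other symbols, and Gpi1, Pfkfb1, Eno1 and Mpc2 had no listed probe set. The chosen probe sets of Hk1, Pgam1, Mpc1, Ldhb and Suclg2 may lie on near-identical copies of these genes. Since probe positions were not checked, the values of these probe sets are uncertain as measures of the named gene. Hk1 was also on 15 probe sets that carry other symbols as well. All 40 were among the 9969 genes tested, out of 19937 genes named by the array. They comprised 2 glucose transporters, 8 genes of upper glycolysis, 5 of lower glycolysis, 12 lactate and pyruvate genes and 13 TCA cycle genes. Their mean signals ranked between percentile 73.1 (Pcx) and percentile 99.8 (Aldoa, the muscle aldolase) of all named genes.

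RNA was taken from left ventricular cardiomyocytes, isolated by collagenase digestion from the hearts of male C57Bl/6NT mice of 8 to 9 months, and hybridised to Affymetrix gene expression arrays. The exposed mice had received a whole-body dose of 0.15 Gy from iron ions of 1 GeV per nucleon, whose linear energy transfer was about 151 keV per µm, and their cells were taken on day 1 (3 arrays), day 3 (3 arrays), day 7 (2 arrays), day 14 (2 arrays) and day 28 (2 arrays). Sham-exposed mice of the same strain, sex and age gave 2 arrays on day 1 and 1 array on day 3, so that time and exposure cannot be told apart for days 7, 14 and 28. The 3 sham arrays served as 1 group in every comparison with sham, and those comparisons share them. Whether arrays of the same group stem from different mice is not in the labels, so p-values measure array-to-array spread that could be technical. The labels put Ca-tolerant cardiomyocytes at over 90% of the cells, with inflammatory or endothelial cells as possible company.

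Glycolysis splits glucose into pyruvate in the cytosol, with hexokinase and phosphofructokinase as its controlled steps. Pyruvate is either reduced to lactate or carried into the mitochondrion, where the pyruvate dehydrogenase complex turns it into the acetyl group that the TCA cycle oxidises. The adult heart draws most of its energy from fatty acids and keeps a smaller, regulated flow through glucose and lactate.

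Values are the deposited log2 signals, and differences are log2 differences with the standard error (SE) of a limma fit over all 15 arrays. P values were adjusted over the 9969 tested genes (Benjamini-Hochberg), and a gene was called at an adjusted p under 0.05. All 12 cardiomyocyte markers were among the tested genes. Their summed linear signal ran from 55874 to 57966 on iron days 1 and 3 and from 55328 to 56359 in sham. It ran from 51050 to 54312 on iron day 7, from 53194 to 54549 on day 14 and from 54464 to 55067 on day 28. The sham day 3 array stood apart in thymocyte and lung genes, with mean log2 deviations from the all-array mean of 2.0 for both lists, against -1.32 and -0.90 (thymocyte) and -0.14 and -0.87 (lung) on the sham day 1 arrays. Thymocyte genes were also at 3.27 and 3.15 on the iron day 28 arrays. Iron day 7 replicate 1 was the lowest of the 15 arrays for 24 of the 40 members and for 19.3% of all tested genes. It read below replicate 2 of the same day in 37 of 40 members, with a median difference of -0.21, while 55.3% of tested genes read lower there. Results that rest on these arrays are given with and without them.

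**Figure D1:**
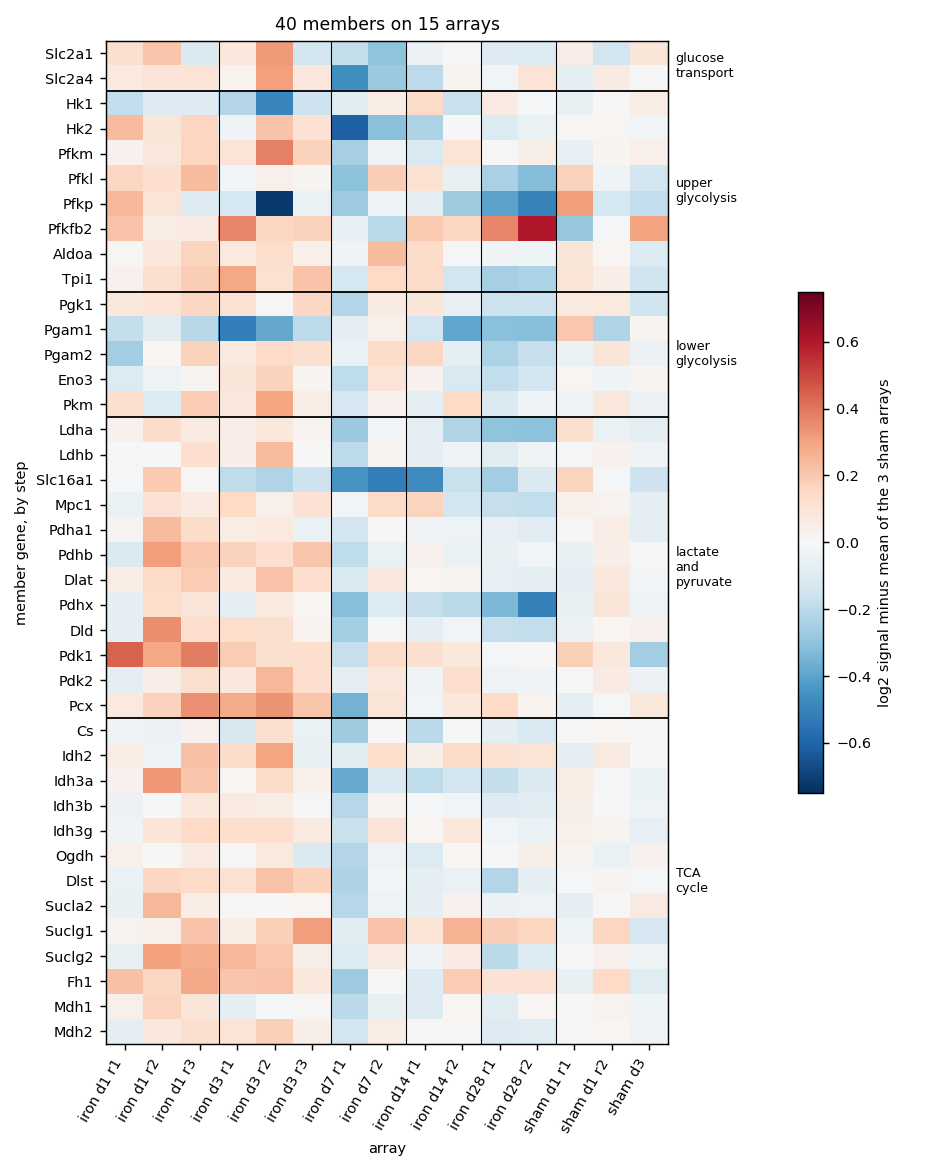
Log2 signal of each of the 40 members on each of the 15 arrays, as the difference from that gene's mean over the 3 sham arrays (colour). Columns are arrays, with iron days 1 to 28 first and sham last, and genes are grouped by step of the pathway. Iron day 7 replicate 1 holds the lowest value of 24 members, and the iron day 1 and day 3 columns lie mostly above sham.

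Most members lay on the same side of the sham mean on a given day, by small amounts. Of 40 members, 35 lay above sham on day 1 and 33 on day 3, while 33 lay below sham on day 7, 24 on day 14 and 31 on day 28. The median difference from sham over the 40 members was 0.08 on day 1, 0.10 on day 3, -0.09 on day 7, -0.01 on day 14 and -0.07 on day 28. Over all tested genes the medians were 0.03, 0.04, -0.03, -0.02 and 0.02 on the same days. When 1 array was left out, the members' median lay between 0.05 (without the sham day 3 array) and 0.12 on day 1, between 0.06 (without iron day 3 replicate 2) and 0.12 on day 3, between -0.19 (without iron day 7 replicate 2) and 0.02 (without iron day 7 replicate 1) on day 7, between -0.03 (without the sham day 3 array) and -0.001 (without sham day 1 replicate 2) on day 14, and between -0.09 and -0.06 on day 28. In RNA from a mixed suspension, fewer cells of a type and less RNA per cell cannot be told apart.

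Markers of other cells lay below sham on the early days, when most members lay above it. On day 3 the median difference was -1.57 for fibroblast markers (10 of 11 called lower), -1.27 for endothelial markers (8 of 10 called lower), -1.26 for macrophage markers (7 of 9 called lower) and -2.40 for erythroid markers (2 of 4 called lower), against 0.02 for cardiomyocyte markers (0 of 12 called by limma, 1 with an unadjusted p under 0.05). On day 1 the medians were -0.86 for fibroblast, -0.57 for endothelial, -0.83 for macrophage and 0.02 for cardiomyocyte markers. No marker was called on day 1 by limma, although 11 of 11 fibroblast, 5 of 10 endothelial and 8 of 9 macrophage markers had an unadjusted p under 0.05 and lay below sham. The summed signal of the fibroblast markers ran from 2138 to 2519 on iron day 3 and from 2490 to 5026 on iron day 1, against 5376 to 5860 in sham. The part of these shifts in the members' differences from sham was not tested.

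**Figure D2:**
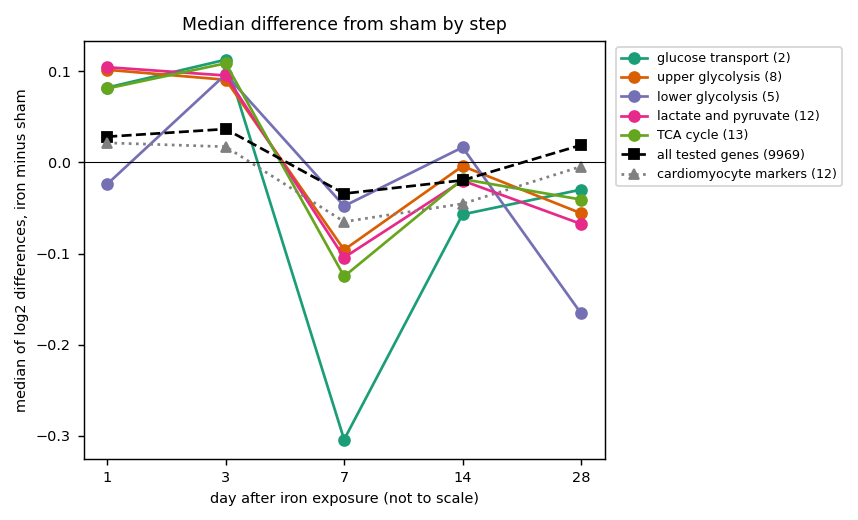
Median log2 difference from the sham mean on each iron day for the members of each step, with all tested genes and the 12 cardiomyocyte markers beside them. The x axis is the day after exposure and the y axis the median log2 difference, and the points of a line share the 3 sham arrays. The 2 glucose transporters reach -0.30 on day 7, the lowest median of the 5 steps.

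On day 1 no member passed the test, while 0.0602% of all tested genes did. Without adjustment, 3 members had a p under 0.05, as had 1100 of all tested genes. The difference was largest for Pdk1, a kinase that switches off the pyruvate dehydrogenase complex. Pdk1 read 9.21, 9.05 and 9.15 on iron day 1, 8.96, 8.88 and 8.89 on day 3, 8.59 and 8.90 on day 7, 8.89 and 8.84 on day 14, 8.75 and 8.76 on day 28, and 8.94, 8.84 and 8.51 in sham. All 3 iron day 1 arrays lay above all 3 sham arrays, and the sham day 3 array was the lowest of the 15. The difference was 0.37 (SE 0.109, adjusted p = 0.284, n = 3 each). Fh1, which encodes fumarate hydratase of the TCA cycle, stood 0.22 above sham (SE 0.0939, adjusted p = 0.402). The iron day 1 arrays of 6 members lay wholly above the sham arrays, as did 7.59% of all tested genes. Iron day 1 replicate 1 differed from the other 2 day 1 arrays. Its fibroblast, endothelial and macrophage markers deviated from the all-array mean by 0.50, 0.71 and 0.20. On the other 2 they lay at -0.62 to -0.36, -0.46 to -0.40 and -0.64 to -0.42. Without that array 3.64% of tested genes were called on day 1, and again no member. Without the sham day 3 array the difference of Pdk1 was 0.24 (limma adjusted p = 0.761), and with that array as the sole control it was 0.63 and was called (limma adjusted p = 0.0340).

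On day 3 again no member passed, while 8.03% of tested genes did. At an unadjusted p under 0.05 there were 6 members, or 15% of 40, against 27.2% of tested genes. Pgam1, a phosphoglycerate mutase of lower glycolysis, read 8.22, 8.32 and 8.19 on iron day 1, 7.89, 8.02 and 8.20 on day 3, 8.34 and 8.44 on day 7, 8.26 and 8.01 on day 14, 8.09 and 8.08 on day 28, and 8.60, 8.18 and 8.42 in sham. The iron day 3 arrays held the lowest value of Pgam1, but the highest of them overlapped the sham range, and the difference was -0.36 (SE 0.115, adjusted p = 0.0674). Its probe set is among those that may lie on a copy of the gene. Pgam1 was called on day 3 without sham day 1 replicate 2. Hk1, a hexokinase found in most tissues, stood at -0.29 on its chosen probe set (SE 0.0954, adjusted p = 0.0774). Above sham at an unadjusted p under 0.05 were Pfkm (0.21), Pcx (0.27), Dlst (0.17) and Tpi1 (0.21), with adjusted p from 0.127 to 0.179. The iron day 3 arrays of 10 members lay wholly above sham, against 19.8% of tested genes. With array weights 4 members were called on day 3, namely Hk1, Pcx, Pfkm and Pgam1, or 10% of 40, against 17.0% of tested genes.

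On day 7 a hexokinase (Hk2), a lactate transporter (Slc16a1) and a glucose transporter (Slc2a4) fell below sham. Their signals were between 71.7% and 77.4% of those in sham, and no member passed in the other direction. They were 3 of 40 members, while 2.67% of all tested genes passed as lower.

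Hk2 is the hexokinase that predominates in insulin-responsive muscle, where it traps glucose by phosphorylation. It read 9.60, 9.45 and 9.52 on iron day 1, 9.33, 9.58 and 9.47 on day 3, 8.75 and 9.05 on day 7, 9.12 and 9.36 on day 14, 9.26 and 9.31 on day 28, and 9.37, 9.37 and 9.34 in sham. Both day 7 arrays were the lowest of the 15, and neither overlapped sham. The mean was 8.90 ± 0.21 on day 7 (SD, n = 2) and 9.36 ± 0.02 in sham (SD, n = 3), a difference of -0.46 (SE 0.105, limma adjusted p = 0.0290).

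Slc16a1 encodes a monocarboxylate carrier that moves lactate and pyruvate across the plasma membrane. Its signal was 10.05, 10.26 and 10.07 on iron day 1, 9.87, 9.84 and 9.91 on day 3, 9.62 and 9.54 on day 7, 9.59 and 9.90 on day 14, 9.80 and 9.95 on day 28, and 10.23, 10.05 and 9.91 in sham. Both day 7 arrays lay below every sham array, with iron day 14 replicate 1 between them. Day 7 averaged 9.58 ± 0.06 (SD, n = 2) and sham 10.06 ± 0.16 (SD, n = 3), so that the difference was -0.48 (SE 0.110, limma adjusted p = 0.0297).

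Slc2a4 encodes the transporter that insulin and contraction bring to the surface of heart and skeletal muscle. It read 10.15, 10.17 and 10.18 on iron day 1, 10.10, 10.38 and 10.15 on day 3, 9.61 and 9.79 on day 7, 9.88 and 10.10 on day 14, 10.05 and 10.18 on day 28, and 10.01, 10.14 and 10.08 in sham. The 2 day 7 arrays were the lowest of all 15, and day 28 lay around the sham values. Means were 9.70 ± 0.13 on day 7 (SD, n = 2) and 10.07 ± 0.07 in sham (SD, n = 3), a difference of -0.37 (SE 0.0975, limma adjusted p = 0.0481).

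**Figure D3:**
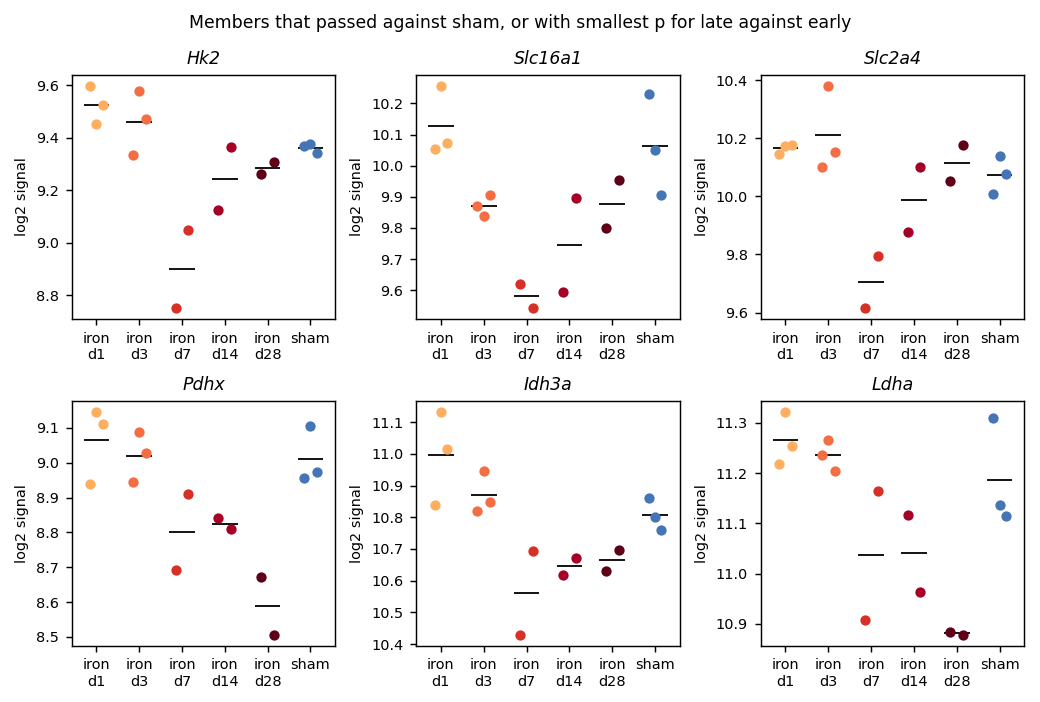
Log2 signal on every array for Hk2, Slc16a1, Slc2a4, Pdhx, Idh3a and Ldha, with iron days 1, 3, 7, 14 and 28 from left to right and sham at the right. Each point is 1 array and each bar a group mean. Hk2 and Slc2a4 have their 2 lowest arrays on day 7, and Pdhx and Ldha on day 28.

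The other glucose transporter, Slc2a1, which serves basal uptake, stood at -0.24 on day 7 and did not pass. The day 7 arrays of 8 members lay wholly below sham, against 22.5% of tested genes. These 3 calls rested on few arrays: none was left without iron day 7 replicate 1 or without either sham day 1 array, and Hk2 alone was called without iron day 7 replicate 2. Slc2a4 was called in 3 of the 15 fits that each leave out 1 array, and leaving out the sham day 3 array kept Hk2 and Slc16a1. In the 13 other alternatives Hk2 was called in 11, Slc16a1 in 10 and Slc2a4 in 4, the last being median centring, a stricter filter, the mean of a gene's probe sets and a replicate block. Macrophage markers were highest on day 7, with a summed signal of 3715 to 5650 against 2494 to 3329 in sham and 1 of 9 tested markers called higher, and cardiomyocyte markers were lowest there. Clock genes, a list of 15 included because they mark time of day, had a mean log2 deviation of -0.52 and -0.34 on the day 7 arrays. It was -0.31 and -0.30 on day 28, against 0.13 to 0.30 in sham. The part of these shifts in the members' differences from sham was not tested. With every array centred on the mean of its 12 cardiomyocyte markers, Hk2 was still called, Slc16a1 and Slc2a4 were not, and the median of the 40 members was 0.02 in place of -0.09. That centring moved the median of all tested genes on day 7 to 0.08. Without iron day 7 replicate 1 the members' median was also 0.02.

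On day 14 no member passed, while 0.833% of tested genes did. The smallest p was that of Slc16a1, at -0.32 (SE 0.110, adjusted p = 0.199), followed by Pgam1 at -0.27 (adjusted p = 0.336). Only Slc16a1 had an unadjusted p under 0.05 on day 14. The day 14 arrays of 4 members lay wholly below sham, while 17% of tested genes did.

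On day 28 Pdhx was the 1 member that passed, and it was lower, as were 0.582% of tested genes. Pdhx encodes the component that anchors the lipoamide dehydrogenase subunit to the core of the pyruvate dehydrogenase complex. It read 8.94, 9.15 and 9.11 on iron day 1, 8.95, 9.09 and 9.03 on day 3, 8.69 and 8.91 on day 7, 8.84 and 8.81 on day 14, 8.67 and 8.51 on day 28, and 8.96, 9.11 and 8.97 in sham. Both day 28 arrays were the lowest of the 15. Pdhx averaged 8.59 ± 0.12 on day 28 (SD, n = 2) and 9.01 ± 0.08 in sham (SD, n = 3), a difference of -0.42 (SE 0.0978, limma adjusted p = 0.0435), or 74.6% of the sham signal. Ldha (-0.31, adjusted p = 0.0780) and Pfkfb2 (0.48, adjusted p = 0.0969) came next and did not pass. Pfkfb2, the heart form of the enzyme that sets the level of the phosphofructokinase activator, read 8.98, 8.82 and 8.83 on iron day 1, 9.13, 8.92 and 8.94 on day 3, 8.71 and 8.56 on day 7, 8.96 and 8.92 on day 14, 9.13 and 9.37 on day 28, and 8.48, 8.75 and 9.06 in sham. Its day 28 arrays lay above all sham arrays, which themselves spread widely. The day 28 arrays of 19 members lay wholly below sham, against 19.4% of tested genes, and all 5 lower glycolysis genes stood below 0, with differences from -0.32 to -0.07.

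The call of Pdhx on day 28 was lost without iron day 1 replicate 3, any 1 iron day 3 array, either day 14 array, either day 28 array or either sham day 1 array, and it held without the sham day 3 array. Median centring moved the median of all tested genes on day 28 to -0.09 and kept Pdhx as the 1 member called. The call was lost with a stricter filter, with no intensity trend, with all probe sets, with a replicate block, with only the arrays compared and with the sham day 3 array as the sole control, so that it held in 12 of 28 refits. With the sham day 1 arrays as the sole controls Pfkfb2 was called as well, and without either iron day 7 array Ldha was.

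Over all iron days against sham no member passed, while 1.13% of tested genes did. Slc16a1 had the smallest p, at -0.22 (SE 0.0781, adjusted p = 0.201), before Pgam1 at -0.22 (SE 0.0912, adjusted p = 0.261), and 3 members had an unadjusted p under 0.05.

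Most of the members called were called between the iron days themselves, a comparison that uses no sham level. On late days (7, 14 and 28, 6 arrays) 15 members were lower than on early days (1 and 3, 6 arrays) and 1 was higher, while 11.7% of all tested genes passed as lower and 10.3% as higher. The largest falls were in Hk2, Idh3a and Pdhx, to between 78.4% and 81.0% of the early signal. In all, 36 of 40 members lay below 0, with a median of -0.14, against a median of -0.03 over all tested genes. The 4 members above 0 were Hk1, Pgam1 (0.06), Pfkfb2 (0.004) and Suclg1 (0.001). The late arrays of 3 members, Idh3a, Ldha and Pdhx, lay wholly below the early arrays, against 2.57% of tested genes.

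The steps differed in their counts. Lactate and pyruvate genes had 8 of 12 members called lower (median -0.22), namely Ldha, Slc16a1, Pcx, Pdk1 and 4 subunits of the pyruvate dehydrogenase complex. Upper glycolysis had 3 of 8 lower and 1 higher (median -0.17), glucose transport 1 of 2 lower (median -0.23), and the TCA cycle 3 of 13 lower (median -0.10). No lower glycolysis gene of 5 was called by limma (median -0.11), and 2 had an unadjusted p under 0.05. The difference between steps was not tested.

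**Figure D4:**
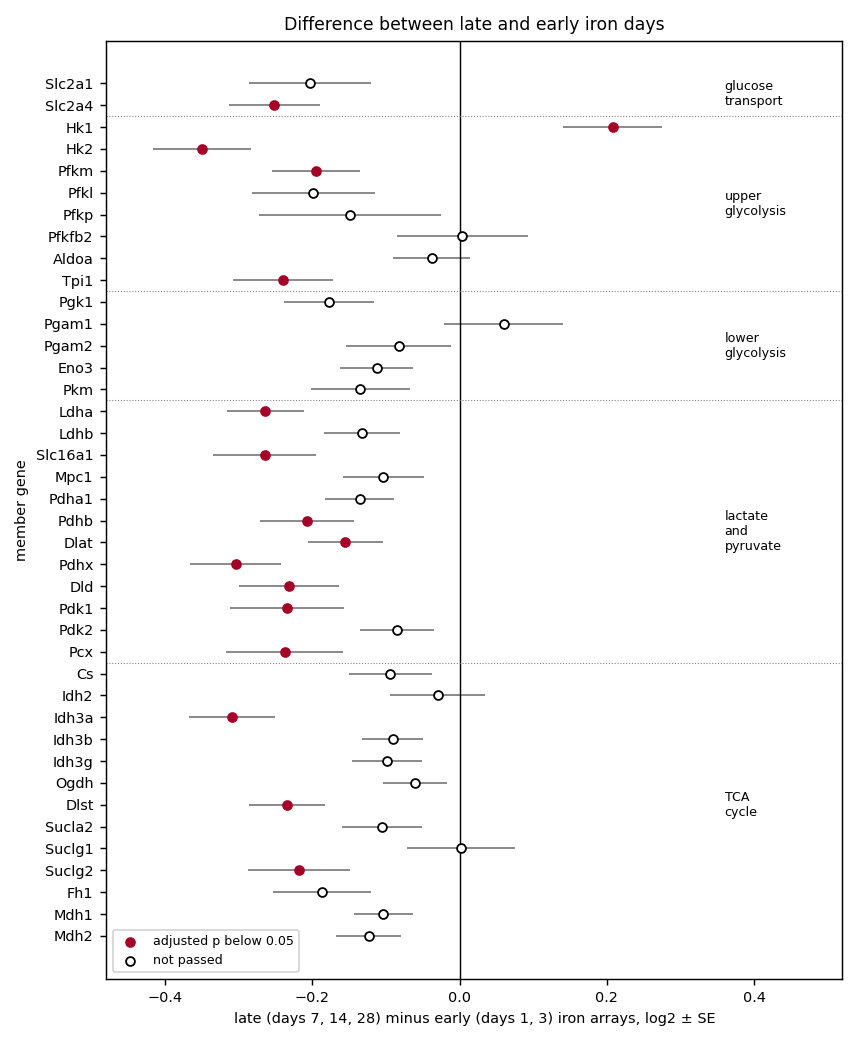
Late minus early log2 difference for each of the 40 members, with the SE of the fit as the bar, grouped by step. Late is the mean of iron days 7, 14 and 28 and early the mean of iron days 1 and 3, with 6 arrays on each side. Members at an adjusted p under 0.05 are marked, 15 of them left of 0 and Hk1 right of it.

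At the entry of the pathway Slc2a4 averaged 9.94 ± 0.21 on late and 10.19 ± 0.10 on early days (SD, n = 6 each). The difference was -0.25 (SE 0.0616, limma adjusted p = 0.0125), and iron day 28 replicate 2 was the 1 late array inside the early range. Hk2 averaged 9.14 ± 0.23 on late and 9.49 ± 0.10 on early days (SD, n = 6 each), a difference of -0.35 (SE 0.0664, limma adjusted p = 0.00347). Iron day 14 replicate 2 was the 1 late array of Hk2 that reached the early range.

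Tpi1 encodes triosephosphate isomerase, which interconverts the products of aldolase. It read 10.73, 10.81 and 10.88 on iron day 1, 10.98, 10.81 and 10.91 on day 3, 10.56 and 10.84 on day 7, 10.84 and 10.55 on day 14, 10.44 and 10.45 on day 28, and 10.79, 10.74 and 10.54 in sham. The day 28 arrays were the lowest of the 15, and iron day 7 replicate 2 and iron day 14 replicate 1 lay inside the early range. The late minus early difference was -0.24 (SE 0.0676, limma adjusted p = 0.0238). Pfkm encodes the muscle phosphofructokinase, the committed step of glycolysis. It read 10.74, 10.80 and 10.87 on iron day 1, 10.81, 11.09 and 10.88 on day 3, 10.46 and 10.68 on day 7, 10.60 and 10.81 on day 14, 10.72 and 10.75 on day 28, and 10.65, 10.73 and 10.75 in sham. Iron day 3 replicate 2 was its highest array and iron day 7 replicate 1 its lowest. Pfkm fell by 0.19 on the log2 scale, with 2 late arrays inside the early range.

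Hk1 was the 1 member called higher late than early. Its chosen probe set read 10.23, 10.32 and 10.32 on iron day 1, 10.19, 9.93 and 10.26 on day 3, 10.33 and 10.47 on day 7, 10.56 and 10.25 on day 14, 10.48 and 10.41 on day 28, and 10.36, 10.42 and 10.47 in sham. Late days averaged 10.41 ± 0.11 and early days 10.21 ± 0.15 (SD, n = 6 each), with iron day 14 replicate 2 inside the early range, and sham averaged 10.42 ± 0.06 (SD, n = 3). The difference was 0.21 (SE 0.0674, limma adjusted p = 0.0422). A second Hk1 probe set, with a lower mean signal, read from 8.39 to 8.83 on late arrays and from 8.77 to 9.23 on early arrays, a difference of -0.33 (SE 0.0750). The chosen probe set lists 1 accession and the second lists 8, and the mean of both gave -0.059 (adjusted p = 0.485), so the direction for Hk1 depends on the probe set. The chosen probe set may lie on a copy of Hk1, so this call is uncertain.

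The remaining genes of glycolysis did not pass. Pgk1, which makes the first ATP of glycolysis, came closest at -0.18 (SE 0.0611, adjusted p = 0.0527). Aldoa stood at -0.04, and the muscle forms Eno3 (an enolase) and Pgam2 at -0.11 and -0.08. Pkm, the pyruvate kinase gene, stood at -0.13 on its chosen probe set and at -0.08 on its second.

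At the branch to lactate, Ldha encodes the lactate dehydrogenase subunit that is most abundant in skeletal muscle, and Ldhb the subunit typical of the heart. Ldha read 11.22, 11.32 and 11.25 on iron day 1, 11.24, 11.27 and 11.20 on day 3, 10.91 and 11.16 on day 7, 11.12 and 10.96 on day 14, 10.88 and 10.88 on day 28, and 11.31, 11.14 and 11.11 in sham. The day 28 arrays were the lowest and nearly equal, and no late array reached the early range. Late days averaged 10.99 ± 0.12 and early days 11.25 ± 0.04 (SD, n = 6 each), a difference of -0.26 (SE 0.0524, limma adjusted p = 0.00446). Ldhb stood at -0.13 (SE 0.0513, adjusted p = 0.0790) on a probe set that may lie on a copy of the gene, and at -0.11 on its second. Slc16a1 averaged 9.73 ± 0.17 on late and 10.00 ± 0.16 on early days (SD, n = 6 each), a difference of -0.26 (SE 0.0696, limma adjusted p = 0.0175). Iron day 14 replicate 2 and iron day 28 replicate 2 lay inside the early range of Slc16a1, whose early values were themselves lower on day 3 than on day 1.

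The pyruvate dehydrogenase complex has a decarboxylase (Pdha1 and Pdhb), an acetyltransferase core (Dlat), a dehydrogenase shared with other complexes (Dld) and the binding protein Pdhx. Of these 5 genes 4 were called lower late than early. Over 30 refits Pdhx kept its call in 29, Dld in 18, Pdhb in 12 and Dlat in 9. Pdhx averaged 8.74 ± 0.14 on late and 9.04 ± 0.09 on early days (SD, n = 6 each), a difference of -0.30 (SE 0.0619, limma adjusted p = 0.00511), and all 6 late arrays lay below all early and all sham arrays. Dld read 9.78, 10.20 and 9.98 on iron day 1, 9.99, 9.97 and 9.88 on day 3, 9.59 and 9.84 on day 7, 9.79 and 9.83 on day 14, 9.68 and 9.67 on day 28, and 9.81, 9.87 and 9.88 in sham. Iron day 1 replicate 2 was its highest array, and 3 late arrays lay inside the early range. Pdhb read 10.23, 10.65 and 10.54 on iron day 1, 10.51, 10.46 and 10.54 on day 3, 10.14 and 10.29 on day 7, 10.37 and 10.29 on day 14, 10.28 and 10.32 on day 28, and 10.28, 10.39 and 10.34 in sham. Its early values reached low on iron day 1 replicate 1, which 5 late arrays equalled or passed. Dlat read 9.92, 10.01 and 10.05 on iron day 1, 9.93, 10.08 and 9.99 on day 3, 9.75 and 9.94 on day 7, 9.88 and 9.88 on day 14, 9.80 and 9.79 on day 28, and 9.80, 9.95 and 9.84 in sham. Iron day 7 replicate 2 was its 1 late array inside the early range. The differences were -0.23 for Dld (adjusted p = 0.0284), -0.21 for Pdhb (adjusted p = 0.0351) and -0.16 for Dlat (adjusted p = 0.0439). Pdha1 stood at -0.14 (SE 0.0474, adjusted p = 0.0554) and did not pass.

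Among the regulators and side reactions of pyruvate, Pdk1 was lower late than early by 0.23 on the log2 scale (adjusted p = 0.0448), with its highest values on day 1. Pdk2, the other kinase of the complex on the list, stood at -0.09. Pcx encodes pyruvate carboxylase, which feeds the cycle with oxaloacetate. It read 6.83, 6.93 and 7.10 on iron day 1, 7.03, 7.09 and 6.96 on day 3, 6.40 and 6.86 on day 7, 6.74 and 6.83 on day 14, 6.91 and 6.78 on day 28, and 6.69, 6.74 and 6.84 in sham. Iron day 7 replicate 1 was the lowest array, and 3 late arrays lay inside the early range. Pcx differed by -0.24 (adjusted p = 0.0481). Mpc1, a subunit of the mitochondrial pyruvate carrier, stood at -0.10 and did not pass, with the same doubt over its probe set.

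In the TCA cycle the members called were Idh3a, Dlst and Suclg2. Idh3a encodes the catalytic subunit of the NAD-dependent isocitrate dehydrogenase, a controlled step of the cycle. It read 10.84, 11.13 and 11.01 on iron day 1, 10.82, 10.95 and 10.85 on day 3, 10.43 and 10.69 on day 7, 10.62 and 10.67 on day 14, 10.63 and 10.70 on day 28, and 10.86, 10.80 and 10.76 in sham. All 6 late arrays lay below all 6 early arrays and below the 3 sham arrays. Late days averaged 10.62 ± 0.10 and early days 10.93 ± 0.12 (SD, n = 6 each), a difference of -0.31 (SE 0.0582, limma adjusted p = 0.00329). Idh3b and Idh3g, the other subunits of the enzyme, stood at -0.09 and -0.10 and did not pass.

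Dlst encodes the succinyltransferase core of the oxoglutarate dehydrogenase complex. Its signal was 10.61, 10.82 and 10.81 on iron day 1, 10.78, 10.88 and 10.84 on day 3, 10.43 and 10.65 on day 7, 10.59 and 10.62 on day 14, 10.44 and 10.59 on day 28, and 10.65, 10.69 and 10.65 in sham. All late arrays lay below sham, and 2 of them were inside the early range, which iron day 1 replicate 1 extended downward. The difference was -0.23 (SE 0.0518, limma adjusted p = 0.00763). Ogdh, the first subunit of the same complex, stood at -0.06 and did not pass.

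Suclg2 encodes the GTP-forming subunit of succinyl-CoA ligase. Its signal was 9.15, 9.52 and 9.48 on iron day 1, 9.45, 9.41 and 9.25 on day 3, 9.11 and 9.28 on day 7, 9.19 and 9.27 on day 14, 9.01 and 9.11 on day 28, and 9.22, 9.24 and 9.18 in sham. Late and early arrays overlapped in 3 late arrays, and the difference was -0.22 (adjusted p = 0.0383), with -0.14 on its second probe set. The chosen probe set may lie on a copy of Suclg2, so this call is uncertain. Among the other 10 TCA cycle members, Mdh2 (-0.12, adjusted p = 0.0588) and Fh1 (-0.19, adjusted p = 0.0597) came closest to passing. Cs, the citrate synthase that starts the cycle, stood at -0.09 and Idh2 at -0.03.

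The size of the late group of calls depended on single arrays, and so did the share over all tested genes. With all arrays that share was 22.0%, against 40% of members. It was 15.9% and 14.9% without iron day 1 replicates 2 and 3. Without iron day 3 replicates 1 and 2 it was 16.5% and 15.0%. Without iron day 7 replicates 1 and 2 it was 12.8% and 27.2%, against 17.5% and 62.5% of members. Without iron day 28 replicates 1 and 2 it was 12.5% and 14.4%, against 15% and 17.5% of members. The count of 16 became 8 without iron day 1 replicate 2, 7 without iron day 1 replicate 3, 8 without iron day 3 replicate 1, 8 without iron day 3 replicate 2, 7 without iron day 7 replicate 1, 25 without iron day 7 replicate 2, 6 without iron day 28 replicate 1 and 7 without iron day 28 replicate 2. Hk2, Idh3a, Ldha and Dlst were called in all 30 alternatives run, Pdhx and Slc2a4 in 29 and Slc16a1 in 27. Tpi1 was called in 20, Dld in 18 and Pfkm in 15. Pdhb, Pdk1 and Suclg2 were called in 12 each, Dlat in 9, and Hk1 and Pcx in 8 each. Without both day 7 arrays Dlst, Hk2, Idh3a, Ldha, Pdhx and Tpi1 were called (15% of members, against 12.4% of tested genes). Without both day 28 arrays Dlst, Hk2, Idh3a, Ldha, Slc16a1 and Slc2a4 were (15%, against 12.6%).

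Markers of other cells and clock genes differed between late and early days as well. Late minus early medians were 0.93 for macrophage markers (7 of 9 called higher), 0.63 for fibroblast markers (9 of 11 called higher), 0.49 for endothelial markers (2 of 10 called higher), 1.39 for lymphocyte markers (Cd4, Cd79b and Cd3e, 3 of 3 called higher), 0.72 for lung and airway markers, 0.51 for erythroid markers, 0.09 for smooth muscle and pericyte markers (1 of 6 called lower) and -0.07 for cardiomyocyte markers (5 of 12 called lower). The 1 tested thymocyte marker, Cd8b1, was higher by 3.11 (SE 0.648, limma adjusted p = 0.00581). The summed signal of the 7 lymphocyte markers on the array ran from 338 to 1605 on late and from 181 to 230 on early arrays, without overlap, and that of the 6 thymocyte markers from 123 to 2015 on late and from 74.0 to 108 on early arrays. The summed signal of the 12 macrophage markers ran from 1912 to 5650 on late and from 1079 to 2480 on early arrays, and that of the 12 fibroblast markers from 3043 to 5285 on late and from 2138 to 5026 on early arrays. That of the 12 cardiomyocyte markers ran from 51050 to 55067 on late and from 55874 to 57966 on early arrays, without overlap. The late range lay below the sham range of 55328 to 56359. No marker was listed at 0, and 3 of the 12 macrophage, 1 of the 12 fibroblast, 4 of the 7 lymphocyte and 5 of the 6 thymocyte markers lay under the signal filter. Of 14 tested clock genes, 10 were called lower and 3 higher late than early, and the mean deviation of the clock list ran from -0.52 to -0.30 on late and from 0.09 to 0.32 on early arrays. That mean takes in genes that moved in opposite directions. Ciart differed by -3.31, Dbp by -1.82 and Per3 by -1.68, and Arntl by 2.43. The part of these shifts in the members' differences was not tested. With each array centred on its cardiomyocyte markers, 6 members were called lower (Dlst, Hk2, Idh3a, Ldha, Pdhx and Slc2a4) and Hk1 higher, and the members' median was -0.05. Over all tested genes that centring gave 1772 called higher and 413 lower, and median centring gave 827 higher and 2164 lower, where the values as deposited gave 1027 higher and 1167 lower.

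**Figure D5:**
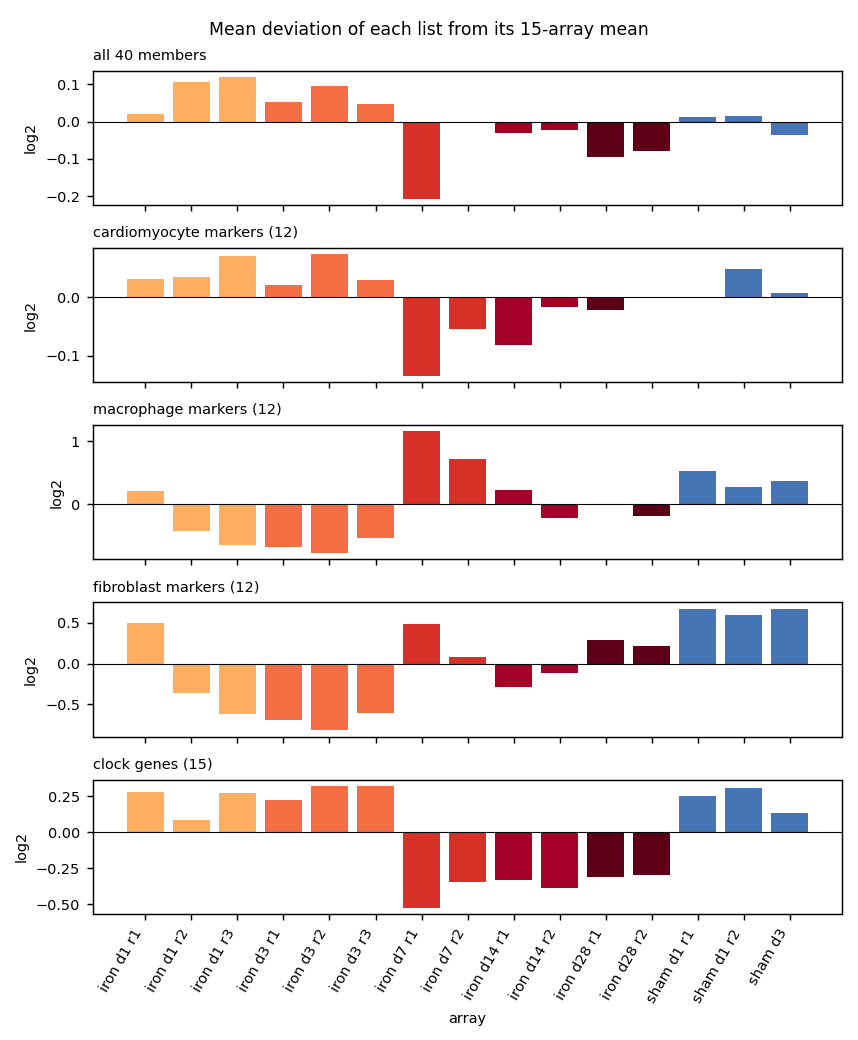
Mean log2 deviation from the all-array mean, on each of the 15 arrays, for the 40 members, the cardiomyocyte, macrophage and fibroblast markers and the clock genes. Arrays run from iron day 1 to iron day 28 with sham at the right, and each bar is 1 array. The members' lowest value (-0.21) and the macrophage markers' highest (1.16) are both on iron day 7 replicate 1.

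A test of any difference among the 5 iron days called 7 members (17.5%), while 19.2% of tested genes passed. They were Hk2 (range of day means 0.63, adjusted p = 0.0110), Slc2a4 (0.51, adjusted p = 0.0195), Idh3a (0.43, adjusted p = 0.0208), Pdhx (0.47, adjusted p = 0.0230), Ldha (0.38, adjusted p = 0.0241), Slc16a1 (0.55, adjusted p = 0.0284) and Dlst (0.31, adjusted p = 0.0409), all by limma's F test. Hk2, Slc2a4 and Slc16a1 had their lowest day mean on day 7, as had Idh3a. Pdhx, Ldha and Dlst had theirs on day 28. The count was 4 without iron day 3 replicate 2, 3 without iron day 7 replicate 1, 2 without iron day 28 replicate 1 and 3 without iron day 28 replicate 2. The share over all tested genes fell as well. In the same order, these refits called 10%, 7.5%, 5% and 7.5% of members. They called 10.6%, 10.96%, 6.13% and 6.95% of tested genes. The count was 10 without iron day 1 replicate 1, iron day 7 replicate 2, iron day 14 replicate 2 or the sham day 3 array. That was 25% of members, against 21.4% to 25.8% of tested genes.

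Late minus early changes were also set side by side for genes that encode forms of the same activity, as log ratios on each array. Of 7 such pairs, 1 passed an exact permutation test over 6 late and 6 early arrays with adjustment over the pairs. The log ratio of Hk2 to Hk1 was lower late than early by 0.56 on the log2 scale (two-sided p = 0.00216, the smallest this exact test can give, adjusted p = 0.0152), and the late and early arrays did not overlap. This ratio rests on the uncertain chosen probe set of Hk1. With the second Hk1 probe set the difference was -0.02 (exact p = 0.742). Ldha to Ldhb, which rests on the uncertain Ldhb probe set, stood at -0.13 (exact p = 0.0584, adjusted p = 0.205), and the other 5 pairs had exact p from 0.162 to 0.976.

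The promoters of 4 members that led the late fall or the day 28 call are shown so that genes lower on the same days can be compared upstream of their starts. Each is the 250 bases before a listed start of the gene, 5′ to 3′ on the gene's strand, from RefSeq (GRCm38.p6). For Hk2, Slc16a1 and Pdhx the window borders the annotated gene. For Ldha, annotated at chr7:46842274-46855627, the window lies inside the gene, before an internal start. Capitals mark matches on either strand to CACGTG, an E-box that clock proteins and carbohydrate-response factors can bind, or to ACGTG, the core of the hypoxia response element, which every CACGTG contains. The windows are chr6:82774455-82774704 (minus strand) for Hk2, chr3:104638414-104638663 (plus strand) for Slc16a1, chr7:46845554-46845803 (plus strand) for Ldha and chr2:103073514-103073763 (minus strand) for Pdhx.
Hk2: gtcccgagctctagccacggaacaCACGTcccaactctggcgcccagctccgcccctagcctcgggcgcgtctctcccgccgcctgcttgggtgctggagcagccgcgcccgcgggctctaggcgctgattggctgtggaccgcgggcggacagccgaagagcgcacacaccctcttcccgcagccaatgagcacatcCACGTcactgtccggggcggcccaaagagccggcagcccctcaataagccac
Slc16a1: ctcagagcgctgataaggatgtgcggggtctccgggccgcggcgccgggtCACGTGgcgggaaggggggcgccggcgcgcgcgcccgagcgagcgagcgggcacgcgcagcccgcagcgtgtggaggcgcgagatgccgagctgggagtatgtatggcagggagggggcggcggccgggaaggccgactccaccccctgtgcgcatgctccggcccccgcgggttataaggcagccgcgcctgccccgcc
Ldha: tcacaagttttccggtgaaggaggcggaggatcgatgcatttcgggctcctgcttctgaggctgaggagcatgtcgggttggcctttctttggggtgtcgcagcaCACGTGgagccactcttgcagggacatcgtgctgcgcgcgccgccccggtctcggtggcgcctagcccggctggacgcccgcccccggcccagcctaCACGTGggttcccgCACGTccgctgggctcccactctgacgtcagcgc
Pdhx: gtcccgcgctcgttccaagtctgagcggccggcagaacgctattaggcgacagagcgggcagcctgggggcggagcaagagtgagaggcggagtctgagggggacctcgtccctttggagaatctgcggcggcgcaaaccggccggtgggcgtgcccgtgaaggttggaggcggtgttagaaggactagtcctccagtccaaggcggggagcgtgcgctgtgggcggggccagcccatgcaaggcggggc

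Hk2 had 2 ACGTG cores in its window and no CACGTG, Slc16a1 had 1 CACGTG, and Ldha had 2 CACGTG and 1 further core. Pdhx had neither. A second Ldha start in the table had neither motif in its 250 bases. Of 38 members with a window, 7 held CACGTG (Ldha, Ogdh, Pcx, Pdk2, Pfkfb2, Pfkm and Slc16a1), as did 6.86% of 27025 genes and 6.02% of all 32851 windows. ACGTG lay in 16 of the 38, against 18.5% of genes and 16.6% of windows. The D-box TTATGNAA lay in 1 member (Pfkm; 3.07% of windows), and TNAAGGTCA, the element of estrogen-related receptors, in 0 of 38 (1.14% of windows). These are matches of letters in the windows given.

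Other genes of glucose and mitochondrial substrate use were followed in lists of 97 genes, of which 77 were tested. None was called by limma on day 1 or day 14, when 8 and 4 of the 77 had an unadjusted p under 0.05. On day 3, when 8.03% of tested genes were called, Irs2, an insulin receptor substrate, was higher by 1.19 (SE 0.253, limma adjusted p = 0.0168). Pgm2, a phosphoglucomutase, stood at -0.91 on that day (SE 0.196, limma adjusted p = 0.0174). On day 7, when 4.6% of tested genes were called in either direction, 5 of the 77 were. Ppargc1b, a coactivator of mitochondrial genes, stood at -0.84 (SE 0.146, adjusted p = 0.0105). Pdp1, a phosphatase that switches the pyruvate dehydrogenase complex on, stood at -0.61 (SE 0.127, adjusted p = 0.0217), and Phka1, a regulatory subunit of the kinase that activates glycogen phosphorylase, at -0.61 (SE 0.142, adjusted p = 0.0305). Insr, the insulin receptor, was at -0.42 (adjusted p = 0.0398) and Irs2 at 1.10 (adjusted p = 0.0438). On day 28 Phka1 alone was called, at -0.61 (adjusted p = 0.0445).

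Late against early, 29 of the 77 were called, 22 lower and 7 higher, with a median of -0.13. Of all tested genes 22.0% were called, 11.7% as lower and 10.3% as higher. Among further TCA cycle and shuttle genes 7 of 19 were lower and 1 higher, including Idh1, the cytosolic isocitrate dehydrogenase (-0.48, adjusted p = 0.00125), and the aspartate-glutamate carriers Slc25a12 (-0.27) and Slc25a13 (-0.43), and Gpd1 of the glycerol phosphate shuttle (-0.39), against Slc25a1, the citrate carrier (0.55). Further pyruvate and lactate genes had 4 of 11 lower, with both phosphatases Pdp2 (-0.55) and Pdp1 (-0.39) among them, and 1 higher, the kinase Pdk4 (0.73, SE 0.210, adjusted p = 0.0272). Glycogen and pentose phosphate genes had 7 of 17 lower, among them Phka1 (-0.45), Pgm1 (-0.27), Phkb (-0.34) and Gbe1 (-0.39). In that list 3 were higher, namely Tkt (0.68), Pgm2 (0.46) and Rpia (0.22). Regulators had 4 of 24 lower, with Ppargc1b at -0.55 and Mlx, a partner of the carbohydrate-response factors, at -0.32, and 2 higher, Irs1 (0.61) and Foxo1 (0.35). None of 6 further glycolysis genes was called by limma, and 2 had an unadjusted p under 0.05. Slc25a1, Tkt, Pgm2 and Rpia were named after their values were seen.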

How the data were processed

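The deposited values of 34760 probe sets on 15 arrays were taken as log2 signals from their range and compared without further scaling. The medians over named genes ran from 5.42 to 5.62 among arrays. They were 5.55 to 5.62 on iron days 7 and 28, 5.43 and 5.53 on day 14, and 5.42 to 5.53 on days 1 and 3. Results with median centring are given among the alternatives. MAS5 is the tool that the submitters' processing notes name. How it was used is not given in the sources at hand. The proton arm of the study was not analysed here. Values ran from 0.234 to 13.01 with 0 missing and were used as deposited.

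Of the probe sets, 21640 had 1 gene symbol, 1321 several and 11799 none, per the platform annotation, and the 9969 genes with a mean log2 signal of at least 5.5125 (the 50th percentile of 19937 named genes) were tested. Genes were fitted with limma 3.58.1 in R 4.3.3 (6 group means, variance trend on intensity), with Benjamini-Hochberg adjustment and a threshold of 0.05, after a run on simulated data. Tables and exact permutation tests used Python 3.11.15 with pandas 2.3.3, numpy 2.4.6 and scipy 1.17.1, and figures matplotlib 3.10.9. The precision is limited by 1 to 3 arrays per group and day.

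Each member called in any comparison was named with its value on every array, the 8 with the smallest p per comparison and direction got full statistics, and the 2 with the smallest p were named where none was called. Of the other pathway genes, at most 4 per list were named per comparison. The members and lists were chosen with earlier results of these data known. Clock and marker lists are given beside the results as levels, as means of each gene's deviation from its all-array mean. Arrays were treated as unpaired. Residuals of arrays with the same replicate number correlated at -0.39 to 0.57 over 31 pairs (median 0.06), with 11 above 0.1. Those with other numbers correlated at -0.57 to 0.49 over 50 pairs (median -0.03), with 14 above 0.1. In groups of 2 arrays the residuals mirror each other, so these values cannot exclude pairing by number.

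Alternatives were quantile normalization, median centring, no filter or a stricter one (6646 genes), no intensity trend, array weights, the mean of a gene's probe sets, a fit over all probe sets, a block for replicate number, a fit restricted to the arrays compared, sham arrays of 1 day, and leaving out each array. Using only the sham arrays of day 1 and leaving out the sham day 3 array are the same fit, so the counts of refits hold it under both names. Centring on cardiomyocyte markers and leaving both day 7 or both day 28 arrays out of the late group were added after seeing the data.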

Additional observations from a re-analysis of the deposited data

Results flagged for a closer look

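Differences between the late and the early iron days, tested over all genes with limma, were past the threshold for 16 of 40 members (40%). The share over all tested genes was 22.0%. These late against early differences are results in which days after the same exposure differ. The adjusted p values were 0.00329 for Idh3a, 0.00347 for Hk2, 0.00446 for Ldha, 0.00511 for Pdhx, 0.00763 for Dlst, 0.0125 for Slc2a4, 0.0175 for Slc16a1 and 0.0238 for Tpi1. They were 0.0284 for Dld, 0.0341 for Pfkm, 0.0351 for Pdhb, 0.0383 for Suclg2, 0.0422 for Hk1, 0.0439 for Dlat, 0.0448 for Pdk1 and 0.0481 for Pcx. Hk1 was higher late on its chosen probe set, and the other 15 were lower.

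A difference anywhere among the 5 iron days gave limma adjusted p values of 0.0110 for Hk2, 0.0195 for Slc2a4, 0.0208 for Idh3a, 0.0230 for Pdhx, 0.0241 for Ldha, 0.0284 for Slc16a1 and 0.0409 for Dlst. These 7 were 17.5% of the members, below the 19.2% of all tested genes that passed the same test.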

How the results depend on the processing

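Days 7, 14 and 28 rest on 2 arrays each, and sham on 3 arrays from days 1 and 3. Of 788 refits of 27 named results, 538 kept direction and call, 249 kept the direction and lost the call, and 1 reversed: Hk1 late minus early was -0.059 with the mean of its probe sets. For days compared with sham, the members called were 1 on day 1 with only the sham day 3 array (0 otherwise) and, on day 3, 4 with array weights (10% of members, against 17.0% of tested genes) and 1 (Pgam1) without sham day 1 replicate 2 (0 otherwise). On day 7 (3 members) there were 0 with only the arrays compared, 0 with only the sham day 3 array and 1 with cardiomyocyte centring, and 2 (Hk2 and Slc16a1) each with array weights, no filter, all probe sets, quantile normalization, no intensity trend or only the sham day 1 arrays. On day 28 (1 member) there were 2 with quantile normalization, 11 with array weights (27.5% of members, against 24.6% of tested genes), 2 with only the sham day 1 arrays, and 0 each with a stricter filter, no intensity trend, all probe sets, only the arrays compared or only the sham day 3 array. Over all iron days 1 was called with array weights (2.5%, against 3.57% of tested genes, and 0 otherwise). Late minus early (16 members) gave 25 with median centring (62.5%, against 30.0% of tested genes), 9 with no filter, 7 with all probe sets, 10 with only the arrays compared, 10 with only the sham day 3 array, 7 with cardiomyocyte centring, and 6 each without the day 7 or the day 28 arrays. Of these late minus early refits, no filter called 22.5% of members and 11.7% of tested genes, and all probe sets 17.5% and 7.92% of probe sets. Only the arrays compared gave 25% and 20.7% of tested genes, and cardiomyocyte centring 17.5% and 21.9%. Among iron days (7 members) there were 12 with median centring (30%, against 28.4% of tested genes) and 22 with array weights (55%, against 40.6%). All probe sets gave 4 (10%, against 6.19% of probe sets) and cardiomyocyte centring 3 (7.5%, against 17.8%). Leaving out 1 array gave 0 to 0 members called on day 1, 0 to 1 on day 3, 0 to 3 on day 7, 0 to 0 on day 14, 0 to 2 on day 28, 6 to 25 late against early, 0 to 0 over all iron days and 2 to 10 among iron days. The causes were not tested.

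With a replicate block the members called were 10 late against early (25%, against 14.5% of tested genes). They were 3 among iron days (7.5%, against 12.5%) and 3 on day 7 (7.5%, against 3.61%). On day 28 the block left 1 called, Pfkfb2 (higher) in place of Pdhx. The sham day 3 array, whose label has no number, then had a level of its own and told nothing about the other differences.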
